A study of Mus musculus with 9 samples.

Results

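The nuclear genome supplies most subunits of the mitochondrial respiratory chain and of ATP synthase, and the mRNAs of these subunits were compared between islets with and without *Raptor* in beta cells. Genes were taken by symbol: *Nduf* genes of the a, b, c, s and v series for complex I, *Uqcr* genes for complex III, *Cox5* to *Cox8* genes for complex IV and *Atp5* genes for ATP synthase (complex V). The *Cox6a*, *Cox7a1*, *Cox7a2* and *Cox8* genes, some of them named by the study, were left out and are not analysed here, so the values for complex IV cover only a portion of its subunits. These patterns gave 68 of the 18193 genes on the array, of which 35 belonged to complex I by name, 8 to complex III, 8 to complex IV and 17 to complex V. A filter on dim probe sets kept 66 of the 68, all except *Cox6b2* and *Cox7b2*.

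Islets came from 8-week-old male mice, and each of the 9 Affymetrix arrays held pooled islet RNA of 5 animals of 1 genotype. The 4 KO arrays were from βRapKO mice (*Raptor* flox/flox with RIP-Cre) and the 5 WT arrays from littermates that also carried *Raptor* flox/flox but no Cre, so both groups had the floxed allele and no array came from mice with Cre alone. Cre was driven by the rat insulin promoter, which targets beta cells. By this design alpha cells, delta cells and stromal cells of the islet keep *Raptor*, which whole-islet arrays cannot show. The labels give C57BL/6 as the strain, and per the methods the Cre line was of mixed background, only partly C57BL/6J. Raptor is the defining scaffold of mTORC1, a kinase complex that promotes protein synthesis and cell growth.

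Respiratory chain complexes pass electrons from NADH to oxygen and pump protons out of the mitochondrial matrix, and ATP synthase uses the returning protons to make ATP. Complex I takes electrons from NADH, complex III passes them from ubiquinol to cytochrome c, and complex IV hands them to oxygen. In beta cells this ATP closes the potassium channel that couples glucose metabolism to insulin release, so the chain stands at the centre of glucose sensing.

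The floxed gene itself, *Rptor*, had a log2 signal of 9.53, 9.59, 9.71, 9.22 and 9.30 on WT arrays and 8.59, 8.48, 9.21 and 8.73 on KO arrays (adjusted p = 0.041 by limma). No source used here says whether its probe set lies in the deleted part. The labelled tissue was borne out by its markers: 7 beta cell markers averaged 13.77 to 13.99 on the WT arrays and 13.18 to 13.38 on the KO arrays, and 4 of them passed the test as lower. Markers of other cells also moved with genotype. The mean of 17 stromal markers was 7.90 to 8.73 on WT arrays and 9.14 to 9.65 on KO arrays, with 7 of the 17 called higher. Mean signals of the marker lists of ducts (5.81 to 6.49 in WT, 7.09 to 7.33 in KO), Schwann cells and glia (5.63 to 6.71, 7.01 to 7.32), delta cells (12.38 to 12.70, 12.77 to 13.17) and endothelium (9.29 to 9.53, 9.61 to 9.97) were also higher in KO islets without overlap. No duct or endothelial marker was called. In the delta cell list and in the Schwann and glia list 1 marker was called higher and 1 had a negative difference (-0.04 and -0.05). Acinar markers (10 genes) ranged from 8.82 to 13.85 between arrays, with wide overlap of the groups. Their part in the results on the respiratory chain was not tested, apart from the fit with the stromal mean given below.

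None of the 66 tested members passed the test for a difference between KO and WT islets. By limma with Benjamini-Hochberg adjustment over all genes, 0 of 66 passed a threshold of 0.05, whereas 860 of the 13644 tested genes did, which is a background of 6.3%. The lowest adjusted p among the members was 0.106, for *Ndufb8*. At an unadjusted p under 0.05 there were 6 members, 3 higher and 3 lower in KO islets, or 9.09% of them against 21.8% of all tested genes. That count fell to 1 with arrays centred on their median or with a replicate block and to 2 with probe sets of a gene averaged or without WT replicate 3, and with 1 array left out it was 2 to 6. The *t*-test named in the methods also left 6 members at an unadjusted p under 0.05 and 0 after adjustment. At a fold change over 1.5 with an unadjusted p under 0.05 no member qualified, against 9.18% of all genes. In whole islets, fewer cells of a type and less RNA per cell cannot be told apart.

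The differences of the members were small. They ran from a log2 difference (KO minus WT) of -0.32 for *Ndufb9* to 0.35 for *Uqcrh*, with 28 positive and 38 negative and a median of -0.02, beside a median of 0.04 over all tested genes. The sign of the median of the members turned without WT replicate 5, KO replicate 2 or KO replicate 3, to 0.0175, 0.037 and 0.0205. The median size of the difference was 0.079 among the members and 0.191 among all genes, and the median standard error was 0.122 and 0.153. For 61 of 66 members (92.4%) the whole 95% interval lay inside a 1.5-fold change either way (0.585 on the log2 scale), as it did for 51.4% of all genes. The 5 others were *Uqcrh*, *Ndufb9*, *Cox6c*, *Ndufb1* and *Ndufa4l2*, whose intervals reached 0.60, 0.62, 0.66, 0.80 and 0.89 in size. The members were bright, with a median WT log2 signal of 12.43 against 9.10 for all genes, and bright array signals can be compressed, which would make differences look smaller. This was not tested.

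**Figure D1:**
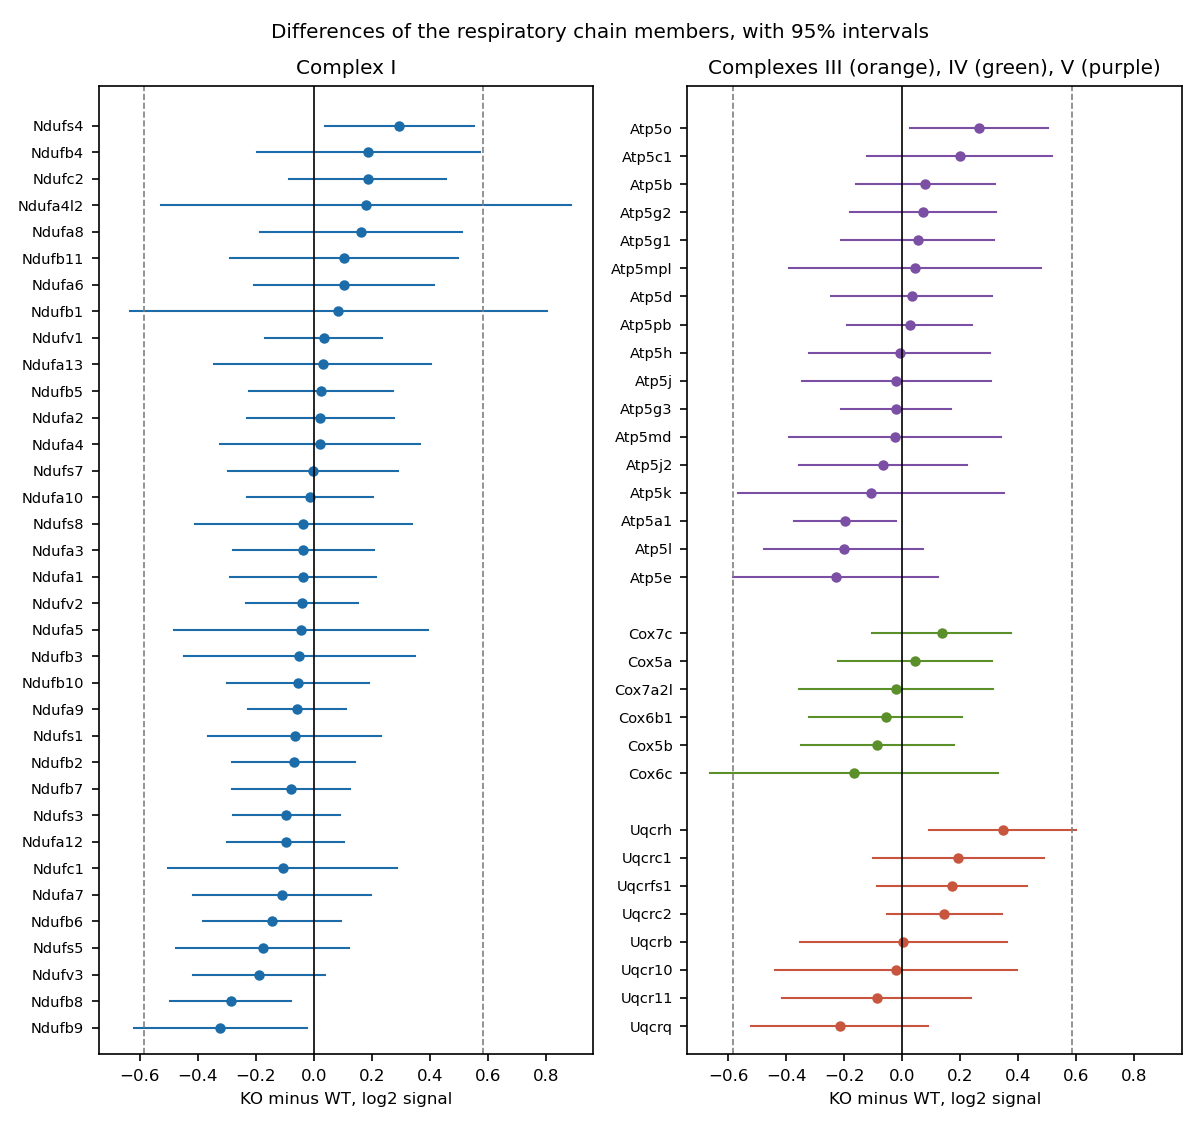
Difference in log2 signal (KO minus WT, x axis) of each of the 66 tested members, grouped by complex, as points with 95% intervals from limma; dashed lines mark a 1.5-fold change. All points lie between -0.32 and 0.35, and 61 of the 66 intervals stay inside the dashed lines.

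**Figure D2:**
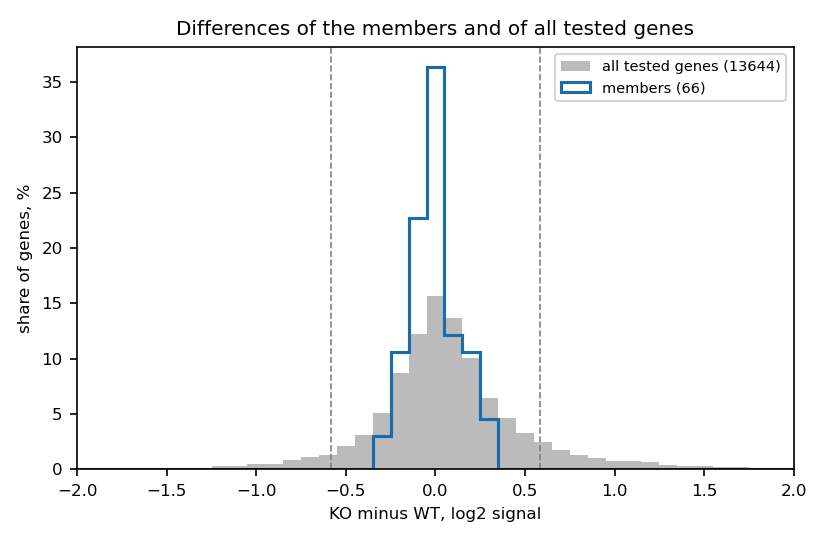
Share of genes (y axis, percent) by difference in log2 signal (x axis, KO minus WT, in steps of 0.1) for the 66 members (blue outline) and all 13644 tested genes (grey), with dashed lines at a 1.5-fold change; 33 genes lie outside the plotted range. No member reaches a dashed line.

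Of complex I, 35 genes were tested, with 13 positive and 22 negative differences and a median of -0.04. This median ran from -0.0832 without KO replicate 4 to 0.0149 without KO replicate 2, was also above 0 without WT replicate 5 (0.00702), and was 0.0211 with probe sets averaged. Its 6 tested core subunits lie in the arm that projects into the matrix and holds the flavin and iron-sulphur clusters. On the probe set that represented each gene, they had the narrowest range of the complex I roles with over 2 tested genes. There *Ndufs1*, *Ndufs3*, *Ndufs7*, *Ndufs8*, *Ndufv1* and *Ndufv2* lay between -0.09 and 0.03, and all 6 intervals excluded a 1.5-fold change. The other probe sets of *Ndufs8* were all more negative, from -0.14 to -0.49 (SE 0.26 for the last). *Ndufv1*, which binds NADH, read 11.63 ± 0.13 (SD, n = 5) on WT arrays and 11.67 ± 0.06 (SD, n = 4) on KO arrays.

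The 8 accessory subunits of the matrix arm ranged from -0.19 for *Ndufv3* to 0.30 for *Ndufs4*. *Ndufs4* encodes an accessory subunit beside the NADH-oxidising end and read 9.88, 10.30, 10.11, 10.34 and 10.23 on WT arrays and 10.59, 10.33, 10.44 and 10.51 on KO arrays (difference 0.30, SE 0.11, adjusted p = 0.171 by limma). Only KO replicate 2 fell below a WT array, WT replicate 4. Its other probe sets were not of 1 sign. The second brightest gave 0.29, with every KO array above every WT array, and the remaining pair gave -0.18 and -0.06.

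Among the 19 accessory subunits of the membrane arm, which surround the proton-pumping core, 12 differences were negative and 7 positive. *Ndufb8* had log2 signals of 12.43, 12.53, 12.48, 12.41 and 12.44 on WT arrays and 12.21, 12.04, 12.06 and 12.39 on KO arrays (difference -0.29, SE 0.09, adjusted p = 0.106 by limma). All 4 KO arrays lay below all 5 WT arrays, although KO replicate 4 was only 0.0228 below the lowest WT array. Its second, dimmer probe set gave -0.16.

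*Ndufb9* had the most negative difference of any member. Its arrays read 12.54, 12.79, 12.73, 12.90 and 12.92 on WT arrays and 12.66, 12.19, 12.32 and 12.65 on KO arrays (difference -0.32, SE 0.13, adjusted p = 0.195 by limma). KO replicates 1 and 4 lay above WT replicate 1, so the groups overlapped. Both bright probe sets of the gene were lower in KO islets, by -0.32 and -0.27.

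*Ndufa4* and *Ndufa4l2* carry complex I names, but the product of *Ndufa4* is known as a component of complex IV, and *Ndufa4l2* is a paralogue known to be induced by hypoxia. *Ndufa4* read 12.66 to 13.17 on WT arrays and 12.61 to 13.23 on KO arrays (difference 0.02, SE 0.15). The dim paralogue *Ndufa4l2* read 7.17, 7.27, 7.04, 6.35 and 7.31 on WT arrays and 7.66, 7.71, 6.32 and 7.16 on KO arrays, and with an SE of 0.31 its difference of 0.18 had the widest upper bound of all members. *Ndufb4* and *Ndufb1* were also represented by dim probe sets, at 6.13 and 7.56 in WT islets, so their values say little. Probe sets that *Ndufb4* shares with *Ndufb4b* and *Ndufb4c* were not used.

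In complex III, 5 of 8 members were positive (62.5%, against 56.2% of all tested genes), and no member passed the test. The median was 0.07, with values of 0.0338 on arrays centred on their median, 0.0396 to 0.134 with 1 array left out and -0.186 with the stromal covariate described below. Its core proteins *Uqcrc1* and *Uqcrc2* and the Rieske iron-sulphur protein *Uqcrfs1*, which accepts electrons from ubiquinol, had differences of 0.19, 0.14 and 0.17, with SEs of 0.13, 0.09 and 0.11. Their adjusted p-values by limma were 0.437, 0.378 and 0.437, and the groups overlapped for all 3. The other probe set of *Uqcrc2* gave -0.03.

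*Uqcrh*, the acidic hinge protein next to cytochrome c1, had the largest difference of all members. It read 12.39, 12.34, 12.49, 12.65 and 12.61 on WT arrays and 13.04, 12.68, 12.70 and 12.93 on KO arrays (difference 0.35, SE 0.11, 95% interval 0.09 to 0.60, adjusted p = 0.108 by limma). Every KO array was above every WT array, by 0.0292 at the closest, and the second probe set gave 0.48. With the stromal covariate described below its difference was 0.0254 (adjusted p = 0.974 by limma). Values of the other small subunits were lower: *Uqcrq* had the most negative difference of the complex (-0.22, SE 0.13), and *Uqcrb*, *Uqcr10* and *Uqcr11* lay between -0.09 and 0.00.

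**Figure D3:**
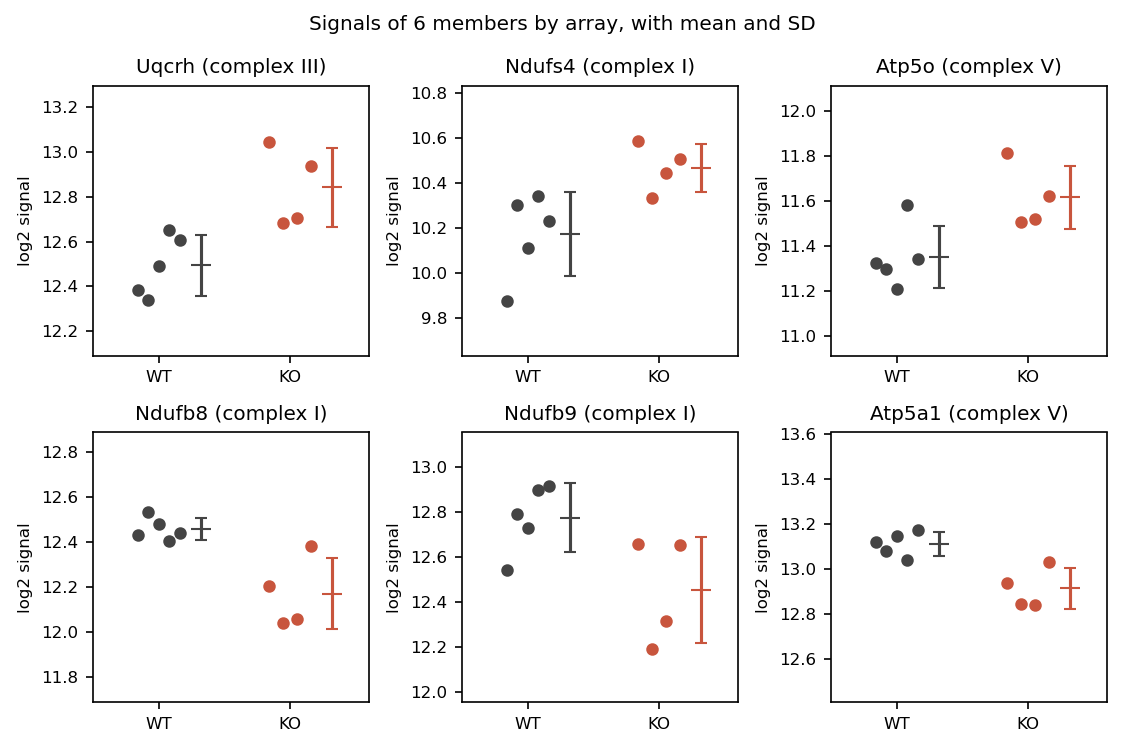
Log2 signal (y axis) on each WT (grey) and KO (orange) array of the 6 members with an unadjusted p under 0.05, with mean and SD beside the points; every panel spans the same range of log2 units. Groups are separate for *Uqcrh*, *Ndufb8* and *Atp5a1* and overlap for *Ndufs4*, *Atp5o* and *Ndufb9*.

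Across all complexes, on the probe set that represented each gene, the 2 groups did not overlap for 3 of 66 members. These were *Uqcrh* upwards and *Ndufb8* and *Atp5a1* downwards (4.55%, against 12.5% of all tested genes).

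Complex IV contributed 6 tested genes, none with an unadjusted p under 0.05, and their median of -0.04 ran from -0.122 without KO replicate 4 to 0.0175 without WT replicate 5. Of its 5 structural subunits, *Cox7c* had the most positive difference, 0.14 (SE 0.11), and *Cox6c* the most negative, -0.17 (SE 0.22). *Cox6c* read 12.79, 13.36, 13.29, 13.60 and 13.66 on WT arrays and 13.41, 12.83, 12.89 and 13.57 on KO arrays, so the spread within either group exceeded the difference. Its second probe set gave -0.29 (unadjusted p = 0.0497 by limma over probe sets). There the groups did not overlap, at 12.62 to 12.99 on WT arrays and 12.21 to 12.59 on KO arrays. *Cox6b1*, on the intermembrane face of the complex, read 13.42 ± 0.15 (SD, n = 5) on WT arrays and 13.36 ± 0.18 (SD, n = 4) on KO arrays. *Cox5a* and *Cox5b* differed by 0.04 and -0.09.

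*Cox7a2l* encodes a factor that joins complexes III and IV into supercomplexes, and it read 12.75 to 13.23 on WT arrays and 12.76 to 13.21 on KO arrays (difference -0.02, SE 0.15). *Cox6b2*, the testis isoform of *Cox6b1*, was not tested, and its signal ran from 2.97 to 6.69 on WT arrays and from 3.68 to 6.16 on KO arrays. *Cox7b2* was not tested either and scattered from 1.33 to 4.96 on WT arrays and from 1.30 to 5.08 on KO arrays. Both groups spanned nearly the same range for *Cox7b2*, and for *Cox6b2* the KO range lay inside the WT range.

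ATP synthase had 17 tested members, 8 positive and 9 negative, and for all 17 the interval excluded a 1.5-fold change. Their median of -0.01 had no stable sign: with 1 array left out it ran from -0.0446 (without KO replicate 4) to 0.0458 (without KO replicate 2), and it was above 0 without WT replicate 2, 3 or 5 or KO replicate 2 or 3. In the catalytic F1 head, *Atp5a1* (the alpha subunit) read 13.12, 13.08, 13.15, 13.04 and 13.17 on WT arrays and 12.94, 12.85, 12.84 and 13.03 on KO arrays (difference -0.20, SE 0.08, adjusted p = 0.177 by limma). The KO arrays were all below the WT arrays, KO replicate 4 by 0.0104. Another bright probe set of *Atp5a1* went the other way (0.18), and the least bright gave -0.26.

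Its partner *Atp5b*, the catalytic beta subunit, read 13.17 ± 0.16 (SD, n = 5) on WT arrays and 13.25 ± 0.12 (SD, n = 4) on KO arrays. The rotor subunit *Atp5c1* differed by 0.20 (SE 0.14) and *Atp5e*, the most negative of complex V, by -0.23 (SE 0.16). Thus the 5 subunits of the head were not of 1 sign.

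In the peripheral stalk, which holds the head in place, *Atp5o* encodes the OSCP subunit. It read 11.32, 11.30, 11.21, 11.58 and 11.34 on WT arrays and 11.81, 11.51, 11.52 and 11.62 on KO arrays (difference 0.26, SE 0.11, adjusted p = 0.184 by limma). WT replicate 4 lay above KO replicates 2 and 3, and the second probe set gave 0.05. The other stalk members *Atp5h*, *Atp5j* and *Atp5pb* lay between -0.02 and 0.02.

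The c ring of the rotor is encoded by 3 paralogues with the same mature product, and none of the 3 passed the test. *Atp5g1* differed by 0.05 (SE 0.12), *Atp5g2* by 0.07 (SE 0.11) and *Atp5g3* by -0.02 (SE 0.08). Of the 5 accessory subunits of the membrane part, *Atp5j2* differed by -0.07 (SE 0.13) on its brightest probe set. Its other probe sets gave 0.10 and, on the least bright with a log2 signal of 8.33 in WT islets, -0.53. On that probe set every KO array lay below every WT array (unadjusted p = 0.019 by limma over probe sets), at the closest 7.97 against 7.98.

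Probe sets of a gene often disagreed at this size of difference. Of the 68 members, 40 had more than 1 probe set above the level of the dim filter: in 11 all were higher in KO islets, in 11 all were lower and in 18 the signs were mixed. *Ndufc2* was positive on all 4 of its probe sets and *Ndufs8* negative on all 6, while their brightest probe sets gave only 0.19 and -0.04. For *Ndufs8* the 6 values ran from -0.49 to -0.04.

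The members also varied between arrays of the same genotype, and did so largely together. The mean log2 signal of the 66 members was 11.97, 11.99, 12.06, 12.09 and 12.21 on the WT arrays and 12.17, 11.90, 11.94 and 12.23 on the KO arrays. Both groups had a mean of 12.06, with an SD between arrays of 0.0955 on WT arrays and 0.163 on KO arrays. Single arrays of 1 genotype thus lay further apart than the genotypes did.

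Members of all 4 complexes shared this movement on the KO arrays, and in part on the WT arrays. From WT replicate 4 to 5 the mean of complex III fell from 12.19 to 12.12, while those of the other complexes rose. On KO replicates 1 and 4, 59 and 57 of the 66 members were above their KO mean, and on KO replicates 2 and 3 only 8 and 11 were. Of all tested genes, between 45.0% and 57.7% were above the KO mean on these arrays. In WT islets the count was 15, 16, 31, 40 and 56 of 66 on replicates 1 to 5. The first principal component of the within-group deviations held 56.7% of the variance of the members, against 21.6% for all tested genes. The members were brighter (median WT log2 signal 12.43 against 9.10), and no set of equally bright genes was compared.

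Array scale moved along with it in part. The median log2 signal of the whole array was 6.98, 7.02, 6.89, 6.87 and 6.87 on WT arrays and 6.95, 7.05, 7.02 and 6.84 on KO arrays, so KO replicate 4 and WT replicate 5, with the highest member means, had medians among the lowest, KO replicate 2, with the lowest member mean, had the highest, and KO replicate 1, with the next highest member mean, had the middle one. Quantile normalization narrowed the range of the member mean from 0.331 to 0.262 and left 50.8% of the variance on the first component, whereas centring each array on its median widened the range to 0.533. Acinar markers averaged 13.00, 13.85, 8.82 and 11.04 on the KO arrays, another order than that of the members. Delta cell markers averaged 12.45, 12.38, 12.60, 12.61 and 12.70 on WT arrays and 13.17, 12.77, 12.93 and 13.13 on KO arrays. Stromal markers averaged 9.65, 9.38, 9.14 and 9.50 on KO arrays. Both lists were lower on KO replicates 2 and 3 than on 1 and 4, as the members were, and so were alpha cell, duct and lymphocyte markers. Endothelial and red blood cell markers were higher there, and the remaining lists were mixed. What moved the members between arrays was not tested.

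**Figure D4:**
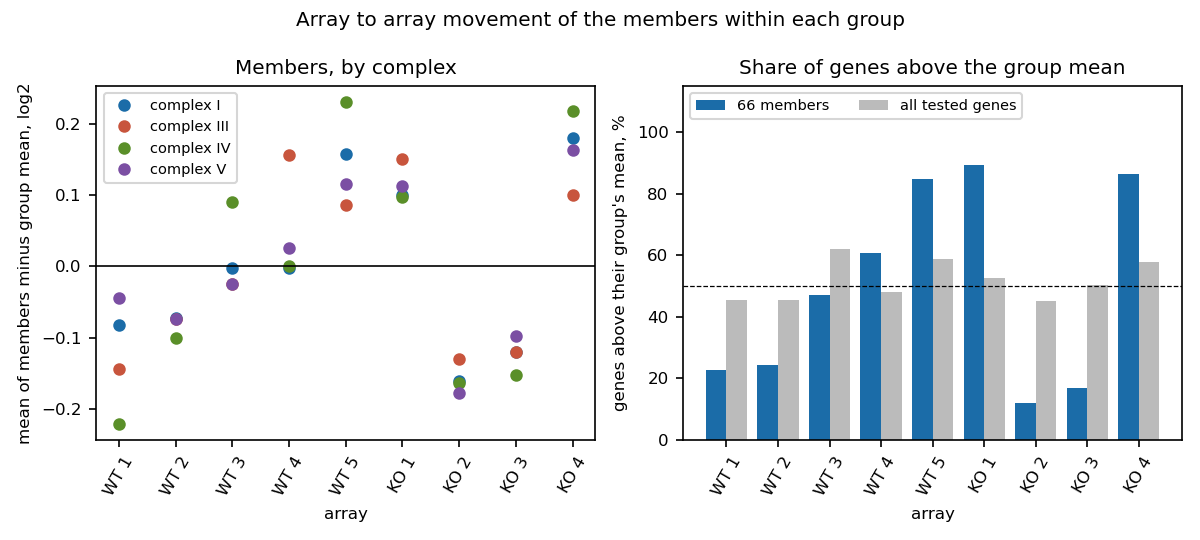
Left, mean log2 signal of the tested members of each complex on each array minus the mean of its genotype group (points coloured by complex). Right, percent of genes above their own group's mean on each array for the 66 members (blue) and all tested genes (grey); the dashed line marks 50%. Every complex is higher on KO replicates 1 and 4 than on 2 and 3. On WT arrays the complexes move together only in part: from replicate 4 to 5 complex III falls while the others rise. The blue bars run from 12.1% to 89.4% while the grey bars stay between 45.0% and 62.0%.

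Upstream sequences of the members with an unadjusted p under 0.05 are shown because these 6 carried the largest statistics of the genotype contrast among the members, although none passed the test. RefSeq (GRCm38.p6) provided a promoter, from 250 bases before to 50 after the start, for 58 of the 68 members and for 4 of these 6. All 4 lie on the minus strand, and the 100 bases just before the start are given 5′ to 3′ with motif matches in capitals, from chr4:116075071-116075170 for *Uqcrh*, chr13:114388095-114388194 for *Ndufs4*, chr16:91931631-91931730 for *Atp5o* and chr19:44555443-44555542 for *Ndufb8*.
Uqcrh: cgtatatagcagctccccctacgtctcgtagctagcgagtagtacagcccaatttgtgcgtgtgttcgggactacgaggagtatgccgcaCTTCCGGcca
Ndufs4: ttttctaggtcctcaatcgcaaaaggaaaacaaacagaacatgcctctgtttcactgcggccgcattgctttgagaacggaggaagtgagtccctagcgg
Atp5o: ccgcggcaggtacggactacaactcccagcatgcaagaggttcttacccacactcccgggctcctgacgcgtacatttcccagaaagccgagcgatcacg
Ndufb8: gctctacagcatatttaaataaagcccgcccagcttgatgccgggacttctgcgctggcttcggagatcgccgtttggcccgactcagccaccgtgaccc

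The motifs searched on both strands were GCATGCGC (the core of the NRF1 site), CCGGAAG (the ETS site read by GABP), AAGATGGC (YY1) and AAGGTCA (read by the ERR receptors), all known from promoters of nuclear respiratory genes. *Uqcrh* held an ETS match on the opposite strand, whose first base is 10 bases before the start. *Ndufs4* and *Ndufb8* each held a YY1 match after the start, shown in capitals within 30 bases of their first exons.
Ndufs4, chr13:114388045-114388074: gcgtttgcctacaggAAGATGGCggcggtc
Ndufb8, chr19:44555393-44555422: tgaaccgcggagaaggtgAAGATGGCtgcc

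*Ndufs4*, with a positive difference, and *Ndufb8*, with a negative one, held the same match, and neither gene passed the test. Whether the motifs go with the differences was not tested. Over the 58 members with a promoter, the NRF1 core was present in 12.1%, the ETS site in 22.4%, the YY1 site in 15.5% and the ERR letters in 12.1%. Over all 27025 genes with a promoter the shares were 3.05%, 9.93%, 3.19% and 5.38%, and over the 10990 of these that were tested here 5.6%, 18.2%, 4.84% and 3.95%. At least 1 of the 4 was present in 29 of the 58 members and in 19.7% of all genes with a promoter, or 29% of those tested here. These are letter matches in a fixed window, with no measure of binding.

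Other genes build or feed the chain. Of 69 tested assembly factors, coenzyme Q enzymes, complex II subunits and carriers outside the symbol patterns, 1 was called, against a background of 6.3% of all genes: *Ndufaf6*, an assembly factor of complex I. It read 9.10, 9.11, 9.07, 8.99 and 9.38 on WT arrays and 8.21, 8.44, 8.61 and 8.69 on KO arrays, every KO array below every WT array (difference -0.64, SE 0.12, adjusted p = 0.0206 by limma). The other 15 assembly factors of complex I did not pass.

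Other values near the threshold went both ways. *Cox4i2*, an isoform of complex IV subunit 4, differed by -0.76 (adjusted p = 0.0578 by limma), *Etfb*, a carrier that feeds electrons from fatty acid oxidation, by 0.31 (0.0629) and *Uqcc2*, an assembly factor of complex III, by -0.41 (0.0735). Medians of the context lists lay between -0.06 for complex II and 0.07 for the ATP synthase assembly list.

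With the mean of the 17 stromal markers as a covariate, the median difference of the members was -0.33 in place of -0.02, 54 of 66 were negative, and 10 had an unadjusted p under 0.05. None passed after adjustment (lowest adjusted p = 0.239, for *Cox7a2l*, by limma). In this fit *Ndufb9* differed by -0.618, *Ndufb8* by -0.355, *Atp5a1* by -0.334, *Ndufs4* by 0.193 and *Atp5o* by 0.237. The stromal mean did not overlap between genotypes, so this fit can hardly separate stromal signal from genotype, and the median standard error of the members rose by a factor of 1.98.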

How the data were processed

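Members and lists were chosen with earlier results of these data known. The authors deposited log2 signals, 1 per probe set and array. The methods name Genespring; no source used here gives the summarisation or scaling. The linear trimmed mean was 497.1 to 497.7 on every array, as after scaling to a common target. Array number limits precision, and no scan dates were used.

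Of 45037 probe sets, 34945 were paired with 1 gene by the platform annotation, 932 with several and 9160 with none; 9 with several genes name a member and were not used. The probe set with the highest mean represented a gene. The lowest 0.25 of genes by mean (log2 signal up to 5.51) was left out. The test was limma 3.58.1 under R 4.3.3 (lmFit then eBayes, no covariate, two-sided), Benjamini-Hochberg over 13644 genes, threshold 0.05; the procedure was tested on simulated data.

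Genes were named in the text where they were called, did not overlap between groups, had the largest difference of either sign in a complex, were named by the study, were paralogues or were left out by the filter; further members illustrate their roles and were chosen after their values were seen. The alternatives were other filters, scalings and probe set rules, the methods' *t*-test, a replicate block, a stromal covariate and leaving out each array. Some genes of the chain are not analysed here.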

Additional observations from a re-analysis of the deposited data

Results flagged for a closer look

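Among 44 groups of arrays examined for the named members, 1 held an array far from the others. *Ndufa4l2* read 6.35 on WT replicate 4, while the other WT arrays read 7.04 to 7.31; the gap to the nearest of them was 0.722 of the whole range of the group. Chance flags about 1 in 20 groups.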

How the results depend on the processing

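No member passed under any of the 18 alternatives, and the lowest adjusted p by limma was 0.0516, for *Uqcrh* after quantile normalization. Counts of all genes called moved from 860 to 452 with no filter on dim genes, 474 with arrays centred on their median, 317 with probe sets averaged, 61 with a replicate block and 3 with the stromal covariate. They lay between 717 and 1080 under the 4 other settings and between 372 and 800 with 1 array left out. Without KO replicate 1, 2, 3 or 4 they were 372, 458, 425 and 468, and without WT replicate 1 or 2 they were 488 and 567. The median difference of the members was 0.0175 with the replicate block, to which WT replicate 5 adds nothing since no KO array shares its number, 0.0213 with probe sets averaged and between -0.0773 and 0.037 with 1 array left out; it was negative as reported and positive without WT replicate 5, KO replicate 2 or KO replicate 3. With the stromal covariate it was -0.329 (complex I -0.323, complex III -0.186, complex IV -0.445, complex V -0.264). Of 359 values of the 20 named members tested, 23 changed sign, in 10 genes, none past the threshold. With probe sets without _s_at and _x_at preferred, *Atp5a1* gave 0.185, *Atp5j2* 0.103 and *Uqcrq* 0.323. With probe sets averaged, *Atp5g1* gave -0.0858, *Cox7a2l* 0.0363 and *Uqcrq* 0.0246. With the stromal covariate, *Atp5g2* gave -0.044, *Cox7c* -0.222, *Ndufa4* -0.253 and *Ndufa4l2* -0.364. *Ndufa4* gave -0.0193 on centred arrays and *Cox7a2l* 0.0391 with the replicate block. The study's methods do not pair the pools, and the values do not settle whether the replicate numbers do. Deviations of same-numbered WT and KO arrays correlated at -0.0404, 0.0876, 0.12 and -0.0269. KO replicates 2 and 3 correlated best with the WT array of their own number. KO replicate 1 correlated best with WT replicate 4 (0.0798) and KO replicate 4 with WT replicate 5 (0.157). The cause of these changes was not tested, beyond the fewer arrays and the other probe sets used. With 1 array left out, *Atp5g1* ranged from -0.0154 to 0.134, *Atp5g3* from -0.0661 to 0.0143, *Atp5j2* from -0.154 to 0.00023, *Cox7a2l* from -0.105 to 0.043 and *Ndufa4* from -0.0986 to 0.109. Signals of dim members (*Ndufb4*, *Ndufb1*, *Ndufa4l2*) limit what can be said of them.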
